A study of Mus musculus with 4 samples.

Results

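Mouse genes named Zfp with a number mostly encode proteins described as zinc finger proteins. Of genes so named, 56 carried regions in a map of captured methylated DNA from CD4+ T cells, the pseudogene Zfp133-ps among them. They were chosen by name alone, as every row whose gene label is Zfp followed by a digit. No measured value entered that rule, but every row of the table is listed at 0 in Th17 cells. How the table's own regions were chosen is not stated in the sources used here. The rule gave 105 of the 10000 regions of the table (1.05%), under 56 of its 5349 gene labels, and the table's own descriptions call 56 of the 56 a zinc finger protein. DNA was taken from 4 populations of spleen and lymph node CD4+ T cells of female Balb/c mice, with 1 library each, and the sources used here give neither the age of the mice nor the number pooled. Every population received PMA (10 ng/ml) plus ionomycin (500 ng/ml), which together activate T cells, over 3 h. Naive cells were CD3+CD4+ with high CD45RB, and Th1 cells had low CD45RB and were IFNg+IL17A-. Th17 cells had low CD45RB and were IFNg-IL17A+. Regulatory T cells (Treg) were CD3+CD4+CD25++ and, unlike the others, were sorted before they were stimulated. Since DNA and not RNA was read, the labelled cell types could not be checked against the expression of their defining genes.

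A zinc finger is a short fold held together by a zinc ion, and arrays of C2H2 fingers let a protein read a particular DNA sequence. Many mouse C2H2 genes also encode a KRAB domain, which recruits Trim28, Setdb1 and heterochromatin protein, and through them histone methylation and DNA methylation, to transposons and imprinted loci. Other Zfp genes encode long transcriptional regulators without that domain, or proteins whose fingers bind RNA or other proteins. The capture used here binds methylated CpG, so reads in a region reflect its methylation and its CpG content together.

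Th17 cells were listed at 0 in all 105 Zfp regions, as in every region of the table, so no Zfp value below describes Th17 cells beyond that 0. The values of the other 3 libraries are scaled reads, with 1 read worth 0.996 units in naive, 1.68 in Th1 and 0.352 in Treg. Their depth over the table was 34277 reads in naive, 19548 in Th1 and 74571 in Treg, of which Zfp regions held 349, 203 and 800. The Treg values are therefore the most precise and the Th1 values the least. Intervals are exact at 95% and cover counting error only, without correction for duplicate reads. No difference between populations has a replicate check.

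Promoters were the smallest class of Zfp location, with 7 regions in 7 genes. Promoter sequence of some of these genes is shown first as background, since the capture binds methylated CpG. The captured regions were not placed on this sequence and may lie outside it. Of these 7 genes, 5 had a RefSeq window of 250 bases before to 50 after the gene's start, in GRCm38.p6. The windows below are those of the gene with the fewest CpG dinucleotides, of the gene with the most, and of Zfp2, whose promoter region had the most Treg reads of the 7. Capitals mark CG, the motif searched, which reads the same on both strands. They are the windows of Zfp648 (chr1:154200937-154201236, plus strand), Zfp653 (chr9:22071327-22071626, minus strand) and Zfp2 (chr11:50916127-50916426, minus strand), each printed 5′ to 3′.
Zfp648: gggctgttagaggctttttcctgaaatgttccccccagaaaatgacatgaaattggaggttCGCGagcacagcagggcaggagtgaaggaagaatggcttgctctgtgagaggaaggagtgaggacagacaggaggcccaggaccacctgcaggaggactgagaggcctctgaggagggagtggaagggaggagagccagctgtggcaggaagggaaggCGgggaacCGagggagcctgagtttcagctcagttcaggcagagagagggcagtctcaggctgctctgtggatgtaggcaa
Zfp653: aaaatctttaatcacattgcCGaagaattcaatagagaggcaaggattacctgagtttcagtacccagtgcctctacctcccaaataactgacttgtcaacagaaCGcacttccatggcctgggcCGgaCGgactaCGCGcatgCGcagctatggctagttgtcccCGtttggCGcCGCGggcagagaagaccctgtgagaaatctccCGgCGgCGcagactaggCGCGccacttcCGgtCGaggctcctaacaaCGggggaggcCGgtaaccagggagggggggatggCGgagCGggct
Zfp2: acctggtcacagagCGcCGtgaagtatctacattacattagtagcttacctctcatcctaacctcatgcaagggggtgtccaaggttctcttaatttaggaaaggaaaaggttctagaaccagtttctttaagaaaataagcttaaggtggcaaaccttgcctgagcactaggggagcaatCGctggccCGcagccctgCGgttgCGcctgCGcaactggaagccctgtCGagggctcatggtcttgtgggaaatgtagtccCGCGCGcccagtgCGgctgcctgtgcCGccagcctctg

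The Zfp648 window held 4 CpG, the Zfp2 window 13 and the Zfp653 window 22. Of 32851 promoter windows of the same length, 68.6% held 4 CpG or more, 37.9% held 13 or more and 23.1% held 22 or more, and 94.6% held at least 1. The windows of Zfp185 and Zfp819 held 20 each. In all, 39 of the 56 genes had 49 windows, with a median of 17 CpG against 7 over all windows, and 71.4% of them against 43.5% had 10 or more. These windows are in another build than the regions, which are in mm9, so no region was placed on them. The table gives a signed number of bases for each promoter region, a deposited score with a reference point that the sources used here do not define. It was -114 for Zfp648 and lay between -1895 and -641 for the other 6, with a median of -1162, against a median of -851 over the 477 promoter regions of the table. By that number, only the Zfp648 region lay within 250 bases, as did 88 of the 477.

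The Zfp648 promoter region had 5 reads in naive, 1 in Th1 and 8 in Treg (mm9, chromosome 1, 156051037 to 156051190). Zfp2 (chromosome 11, 50731178 to 50731497) held 1, 2 and 12 reads in the same order, and Zfp653 (chromosome 9, 21876880 to 21877122) held 2, 1 and 10. In these 3 genes the Treg library, the deepest, had the most reads. Zfp185, which encodes an actin-associated LIM domain protein, had its region on chromosome X (70231903 to 70232172) with 4 naive, 4 Th1 and 8 Treg reads. Zfp819, a KRAB gene known for repressing retroelements in pluripotent cells, held 5, 2 and 4 reads (chromosome 7, 50861256 to 50861499). Zfp286 lay the other way from Zfp2, with 6 naive, 3 Th1 and 3 Treg reads (chromosome 11, 62604769 to 62604949). The pseudogene Zfp133-ps held 3, 1 and 7 (chromosome 2, 144284124 to 144284297). Over the 7 regions the mean value was 3.70 units in naive (interval 2.42 to 5.42), 3.36 in Th1 (1.84 to 5.64) and 2.62 in Treg (1.96 to 3.43), all within counting error of the 3.55, 3.30 and 2.71 of all promoter regions. None of the 7 carried an exon number, whereas 114 of the 477 promoter regions did.

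Exons held 17 Zfp regions in 16 genes, 16.2% of the 105 (interval 9.72 to 24.7), beside 16.6% in the table. Early exons made up most of them: 13 of 17 lay in exons 2 to 5 (76.5%, interval 50.1 to 93.2), where 39.7% of the table's 1658 exonic regions lay. The median exon number was 4 for Zfp and 6 for the table. Exon 6 or later held 3 of 17 Zfp regions (17.6%, interval 3.80 to 43.4) against 54.0% in the table, and exon 1 held 1 against 6.27%. How many exons each gene has was not taken into account, and the difference was not tested. The plot of location shares shows these shares by gene class.

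**Figure D1:**
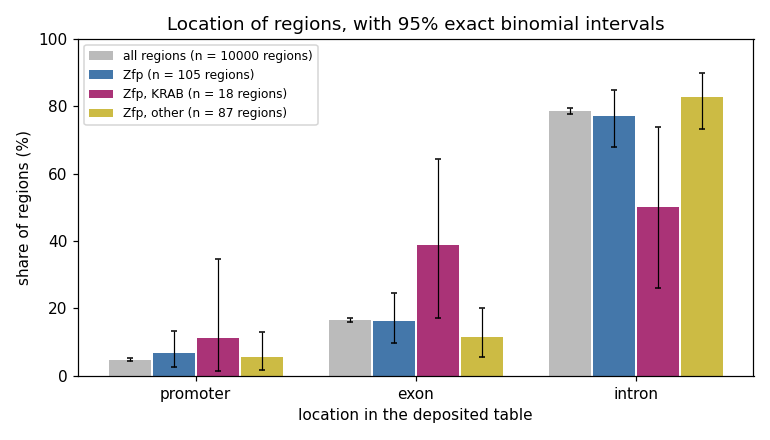
Share of regions in promoters, exons and introns (vertical axis, percent) for all 10000 regions, the 105 Zfp regions, the 18 of Zfp genes known to encode a KRAB domain and the 87 of other Zfp genes; bars are shares and whiskers 95% exact binomial intervals. The Zfp bars follow those of the whole table, while KRAB genes have 7 exonic and 9 intronic regions of 18, with wide intervals.

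Zfp334, a KRAB gene, was the only member with a pair of exonic regions, both in exon 5 on chromosome 2 and 3.20 kb apart. The first (165200504 to 165200834) held 7 naive, 3 Th1 and 13 Treg reads, 23 in all, the second-highest total of the 105. The next (165204033 to 165204216) held 3, 2 and 6. Among the exon 2 regions, Zfp280b had the most Treg reads. It held 1 naive, 1 Th1 and 12 Treg reads (chromosome 10, 75503973 to 75504288), whereas Zfp26, a KRAB gene, held 4, 1 and 4 (chromosome 9, 20250183 to 20250415). Zfp319 held 4, 2 and 4 (chromosome 8, 97849855 to 97850052). Zfp36l3, an X-linked gene of rodent placenta whose CCCH fingers bind RNA and not DNA, held 5, 1 and 3 (51076100 to 51076275). Thus Treg reads were 3 or 4 in those 3 genes and 12 in Zfp280b. The interval of the Zfp280b Treg value, 4.23 units (2.19 to 7.39), overlaps those of the other 3.

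Exon 3 regions belonged to Zfp108, a KRAB gene (2 naive, 1 Th1 and 9 Treg reads; chromosome 7, 25046480 to 25046715), and to Zfp597, whose human counterpart is imprinted (3, 3 and 8; chromosome 16, 3866098 to 3866302). Exon 4 regions belonged to Zfp191, a SCAN-domain gene needed for myelination (3, 1 and 6; chromosome 18, 24170278 to 24170536), and to the KRAB genes Zfp37 and Zfp874a. Zfp37 held 3, 1 and 9 reads (chromosome 4, 61852695 to 61853013), while Zfp874a was among the sparsest members with 2, 1 and 2 (chromosome 13, 67532280 to 67532538). Zfp831 held 4, 2 and 5 in exon 5 (chromosome 2, 174534822 to 174535024). The one exon 1 region, of the KRAB gene Zfp788, held 3 naive, 4 Th1 and 5 Treg reads (chromosome 7, 48902937 to 48903111), the most Th1 reads of any exonic Zfp region.

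Late exons were read in 3 genes. Zfp592, part of a complex with Zfp532 that binds chromatin, held 3, 3 and 6 reads in exon 9 (chromosome 7, 88186739 to 88186976). Zfp541, a gene of meiotic spermatocytes, held 4, 3 and 8 in exon 14 (chromosome 7, 16680830 to 16681177). Zfp618, which encodes a partner of Uhrf2 that binds 5-hydroxymethylcytosine, held 3, 1 and 12 in exon 15 (chromosome 4, 62798584 to 62798787). Across all 17 exonic regions reads ran from 1 to 7 in naive with a median of 3, from 1 to 4 in Th1 with a median of 1, and from 2 to 13 in Treg with a median of 6. Every exonic Zfp region was read in all 3 libraries. Of the table's exonic regions, 10.7% had no Th1 read, 1.75% no naive read and 0.0603% no Treg read. The mean Treg value of the 17 Zfp regions was 2.49 units (interval 2.06 to 2.97), and that of all exonic regions was 2.88.

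Introns held the other 81 regions (77.1%, interval 67.9 to 84.8), in 36 genes, beside 78.7% in the table. The table numbers exons but not introns, so an intron named below by its coordinates is an intronic region. Several regions of a gene can lie in the same intron. Counted by genes, 64.3% of the 56 had an intronic region, beside 75.0% of the table's 5349 labels, and 28.6% an exonic one, beside 28.4%. Of the 56 genes, 33 had intronic regions only, 14 exonic only, 6 a promoter region only, and 3 a mixture. Region length had a median of 244 bp for Zfp (130 to 478) and 249 bp for the table. The median of 5.05 reads per 100 bases, over the 3 libraries summed, compares with 5.06 in the table.

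Most Zfp genes, 40 of 56 (71.4%), had 1 region, 7 had a pair and 9 had 3 or more. Over the table, 63.9% of 5377 gene identifiers had 1 region and 17.3% had 3 or more, against 16.1% of Zfp genes. The 9 genes held 51 of the 105 Zfp regions, of which 49 were intronic. Zfp423 led with 10 regions, followed by Zfp385b with 8, Zfp521 and Zfp536 with 6 each, Zfp407 and Zfp704 with 5 each, Zfp532 and Zfp618 with 4 each, and Zfp827 with 3. None of the 9 is among the 16 genes listed below as encoding a KRAB domain. The plot of positions along these genes shows that their regions were spread and not contiguous: their closest neighbours, in Zfp521, lay 3.89 kb apart. Over all member genes the closest neighbours within a gene lay 3.20 kb apart, in Zfp334, so no regions could be merged at a gap of 1000 bases. None of these counts allows for the length of the genes.

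**Figure D2:**
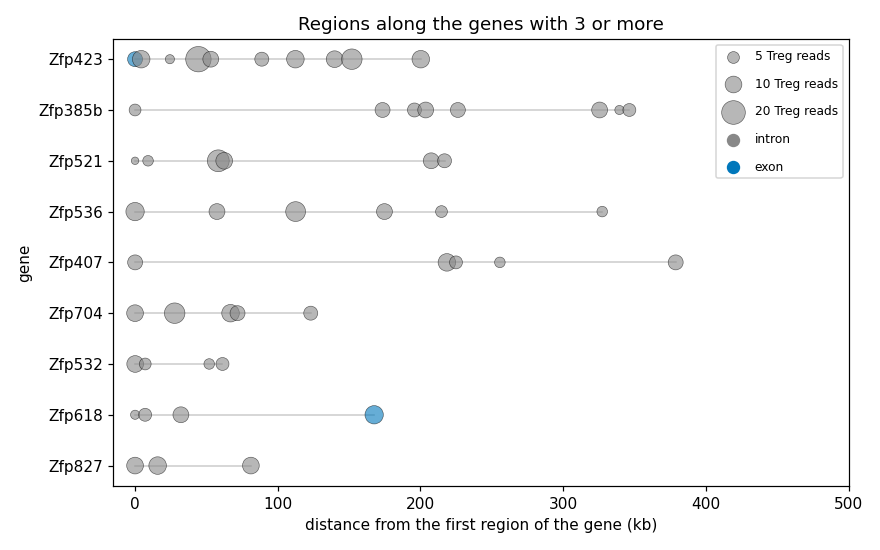
Regions along the 9 Zfp genes with 3 or more, placed by distance of the region's middle from the first region's start (horizontal axis, kb); circle area is proportional to Treg reads, and colour marks intron or exon. Zfp407 spans the greatest distance, 379 kb, and the largest circle is the Zfp423 intron with 23 Treg reads.

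Zfp423 encodes a protein of many zinc fingers that partners Ebf1 and Smad proteins and commits precursors to fat cells. Its 10 regions on chromosome 8 lay between 90211840 and 90412250, a span of 200 kb, 9 in introns and 1 in exon 5. They held 42 naive, 25 Th1 and 108 Treg reads in sum. Per region that is 4.18 units in naive (interval 3.02 to 5.66), 4.20 in Th1 (2.72 to 6.20) and 3.81 in Treg (3.12 to 4.596). The 3 intervals overlap, and the Treg interval starts above the table's mean of 2.63 while the naive and Th1 intervals hold the 3.41 and 3.29 of the table. Within the gene, reads ranged from 2 to 7 in naive, from 1 to 4 in Th1 and from 3 to 23 in Treg.

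The Zfp423 intron from 90256079 to 90256556 held 4 naive, 3 Th1 and 23 Treg reads, 30 in all, the third-highest total of the 10000 regions. At 478 bp it was also the longest Zfp region, and its density of 6.28 reads per 100 bases was closer to the Zfp median of 5.05. Its values were 3.98 units in naive (interval 1.09 to 10.2), 5.04 in Th1 (1.04 to 14.7) and 8.11 in Treg (5.14 to 12.2), which overlap. A Zfp423 intron from 90363639 to 90363892 held 3, 3 and 15 reads at 8.27 per 100 bases. In contrast, the intron from 90236248 to 90236485 held 4, 3 and 3, and its Treg value of 1.06 (0.218 to 3.09) was the lowest of the gene. Treg signal thus varied over 23 against 3 reads between intronic regions of the same gene while naive reads were 4 in both. The exon 5 region (90211840 to 90212113) held 6, 1 and 8. Over the 105 regions, length and total reads had a Pearson correlation of 0.49 and a Spearman correlation of 0.36, against 0.29 and 0.27 over the 10000, where every point shares the same 3 libraries.

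Zfp521 encodes a close relative of Zfp423 that antagonises Ebf1 in blood cell and neural precursors. Its 6 intronic regions on chromosome 18 lay between 13888205 and 14105163, and together had 23 naive, 8 Th1 and 49 Treg reads. The region from 13888205 to 13888454 had 9 naive, 1 Th1 and 2 Treg reads, the most naive reads of any member, and it was 1 of 3 members with only 2 Treg reads, beside Zfp202 and Zfp874a. Its naive value was 8.97 units (4.10 to 17.0) and its Treg value 0.705 (0.0854 to 2.55), a Treg to naive ratio of 0.0786 (interval 0.00827 to 0.380). The intron from 13946468 to 13946759 lay the other way, with 2, 2 and 17 reads. The other 4 held 2 to 4 naive, 1 or 2 Th1 and 4 to 10 Treg reads. Summed over the gene, the Treg to naive ratio was 0.754 (0.451 to 1.30), near the 0.770 of the table.

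Zfp536, a brake on neuronal differentiation, had 6 intronic regions over 327 kb on chromosome 7 (38215173 to 38542553), where 20 reads were naive, 12 Th1 and 53 Treg. Its means were 3.32, 3.36 and 3.11 units, in the same order. The first region (38215173 to 38215419) held 1 naive, 4 Th1 and 12 Treg reads, and the third (38327595 to 38327875) held 2, 2 and 14. The last (38542362 to 38542553) held 5, 1 and 4. The intervals of the ratios between libraries hold 1 in both the first and the last region. Zfp385b, of a family of p53-linked zinc finger proteins, had 8 intronic regions on chromosome 2 (77290074 to 77636442) with 27, 10 and 55 reads. Of these, 77493600 to 77493873 held 4, 0 and 9 reads and 77636267 to 77636442 held 4, 0 and 6. Its Th1 mean of 2.10 units (1.01 to 3.86) was the lowest of the 9 genes, yet its interval holds the 3.29 of the table.

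Zfp407, known for a part in glucose uptake of fat cells, had 5 intronic regions over 379 kb of chromosome 18 (84318924 to 84697800). They held 16 naive, 9 Th1 and 37 Treg reads in sum. The region from 84537309 to 84537566 held 3, 3 and 11, while that from 84574375 to 84574670 held 4, 0 and 4. Zfp618 held 15, 7 and 30 reads over 4 regions on chromosome 4 (62631121 to 62798787). Neighbouring intronic regions differed in reads, with intervals that overlap in each library. The first, 62631121 to 62631433, held 2, 5 and 3 reads, and 62638208 to 62638414 held 5, 0 and 6. The next, 62663229 to 62663453, held 5, 1 and 9. The Treg to Th1 ratio of the first of these was 0.126 (interval 0.0195 to 0.647).

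Zfp704 had 12 naive, 7 Th1 and 51 Treg reads in its 5 intronic regions on chromosome 3 (9440629 to 9563888). It had 3 of the 9 Zfp regions that were unread in a library. The intron from 9512365 to 9512649 held 0 naive, 5 Th1 and 8 Treg reads. Against the value of 3 naive reads, the limit that a count of 0 allows in that library, the Th1 value of 8.40 was at least 2.81-fold higher if its 5 reads are taken as exact. With the error of both counts, the interval of the Th1 to naive ratio starts at 1.55. Its Treg value of 2.82 was under that limit of 2.99, so no fold is given. The neighbouring intronic region, 4.64 kb before it (9507488 to 9507728), held 1, 0 and 11, and 9440629 to 9440865 held 4, 0 and 10. The second in order, 9468357 to 9468620, held 2, 1 and 15, and the last, 9563676 to 9563888, held 5, 1 and 7. Per region the gene had 2.39 units in naive (1.24 to 4.18), 2.35 in Th1 (0.946 to 4.85) and 3.60 in Treg (2.68 to 4.73). Its Treg to naive ratio of 1.504 (0.791 to 3.10) holds 1 but not the 0.770 of the table.

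Zfp532, the partner of Zfp592 in chromatin, had 4 intronic regions on chromosome 18 (65779744 to 65841190). They held 14 naive, 13 Th1 and 25 Treg reads in sum. The region from 65779744 to 65780167 held 1, 6 and 10, and its Th1 to naive ratio was 10.1 (interval 1.23 to 466). The region from 65831723 to 65831896 held 6, 1 and 4, with the most reads in naive. Its Treg to naive ratio was 0.236 (0.0490 to 0.995), an interval that holds the 0.770 of the table. The other pair held 3, 3 and 5 (65786847 to 65787102) and 4, 3 and 6 (65841010 to 65841190). Summed, the Treg to Th1 ratio was 0.403 (0.199 to 0.858), an interval that leaves out 1 but holds the 0.800 of the table.

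Zfp827, which recruits the NuRD complex to telomeres, had the highest mean Th1 value of the 9 genes. On chromosome 8 its first intronic region (81570298 to 81570546) had 2 naive, 4 Th1 and 10 Treg reads, and the others held 4, 6 and 11 (81586002 to 81586443) and 2, 4 and 10 (81651344 to 81651724). The mean Th1 value was 7.84 units (4.29 to 13.2), against 2.66 in naive (1.15 to 5.23) and 3.64 in Treg (2.47 to 5.17). The Th1 to naive ratio was 2.95 (interval 1.16 to 8.12) and the Treg to Th1 ratio 0.464 (0.240 to 0.945). The latter interval holds the 0.800 of the table, while the former leaves out the table's 0.962. Of the 27 ratios of the 9 genes, 3 had an interval that left out 1 and 2 an interval that left out the table's ratio, with the Th1 to naive ratio of Zfp827 in both counts. No adjustment was made over the 27.

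**Figure D3:**
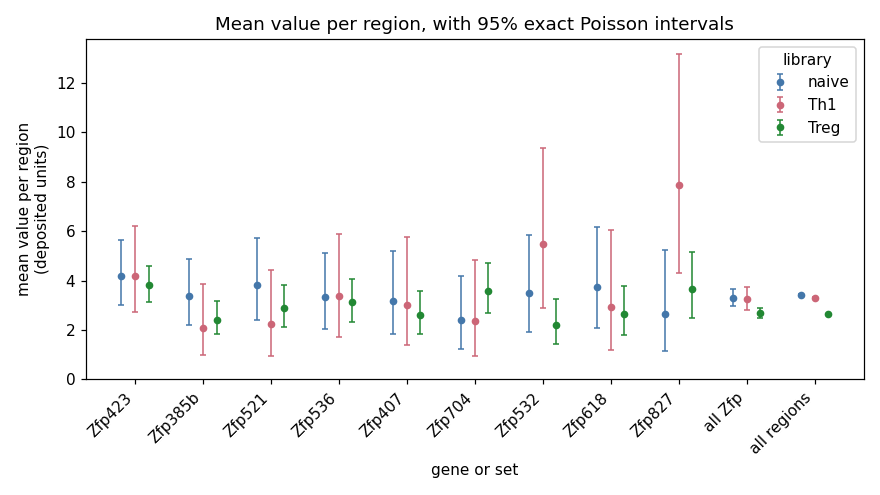
Mean value per region (vertical axis, deposited units) in the naive, Th1 and Treg libraries for the 9 Zfp genes with 3 or more regions, all 105 Zfp regions and all 10000 regions; points are means and bars 95% exact Poisson intervals. The Th1 mean of Zfp827 is 7.84 and its interval, from 4.29, starts above the 3.73 that bounds the Th1 mean of all Zfp regions.

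Among the 7 genes with a pair of regions, reads ran from 1 to 7 in naive, 0 to 3 in Th1 and 3 to 13 in Treg. Zfp286, a KRAB gene on chromosome 11, had an intron (62579870 to 62580101) with 4, 2 and 4 reads in addition to its promoter, 24.7 kb away. Over both, its Treg to naive ratio was 0.248 (interval 0.0800 to 0.721). Zfp609, which binds the cohesin loader Nipbl and Integrator, had intronic regions on chromosome 9. They held 3, 0 and 6 reads (65638353 to 65638570) and 5, 1 and 3 (65649931 to 65650074). Zfp652, a partner of Cbfa2t3 in repression, held 2, 1 and 8 and 4, 1 and 8 reads (chromosome 11, 95635898 to 95683774), alike in Th1 and Treg. Zfp516, an activator of brown fat genes, held 3, 1 and 7 and 4, 1 and 6 (chromosome 18, 83086251 to 83116937). Zfp462, a heterochromatin regulator of embryonic stem cells, held 1, 2 and 7 and 3, 1 and 9 (chromosome 4, 54980696 to 55044607). Zfp438 held 3, 3 and 5 and 2, 1 and 6 (chromosome 18, 5255357 to 5264486).

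The other 21 genes had 1 intronic region each, with 1 to 5 naive reads (median 3), 0 to 4 Th1 reads (median 2) and 2 to 12 Treg reads (median 7). Zfp644, which works with the histone methyltransferases Ehmt1 and Ehmt2, had the most Treg reads of them, with 3, 2 and 12. Zfp202, a SCAN and KRAB gene linked to lipid metabolism, had the fewest, with 1, 4 and 2 (chromosome 9, 40002219 to 40002488), and a Treg to Th1 ratio of 0.105 (interval 0.00948 to 0.732). Zfp664 was the one of the 21 with no Th1 read, at 4, 0 and 7 (chromosome 5, 125370299 to 125370491). Zfp366, a gene of dendritic cells, held 2, 2 and 7. Zfp346, whose fingers bind double-stranded RNA, held 3, 2 and 6. Zfp451, a SUMO ligase gene, held 3, 2 and 5, close to Zfp346 in all 3 libraries. Zfp622, which acts in ribosome maturation, held 1, 2 and 9, and Zfp362 held 5, 4 and 9. The rest lay within these ranges: Zfp101, Zfp266, Zfp385c, Zfp420, Zfp474, Zfp518b, Zfp617, Zfp623, Zfp667, Zfp710, Zfp74, Zfp9 and Zfp954.

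**Figure D4:**
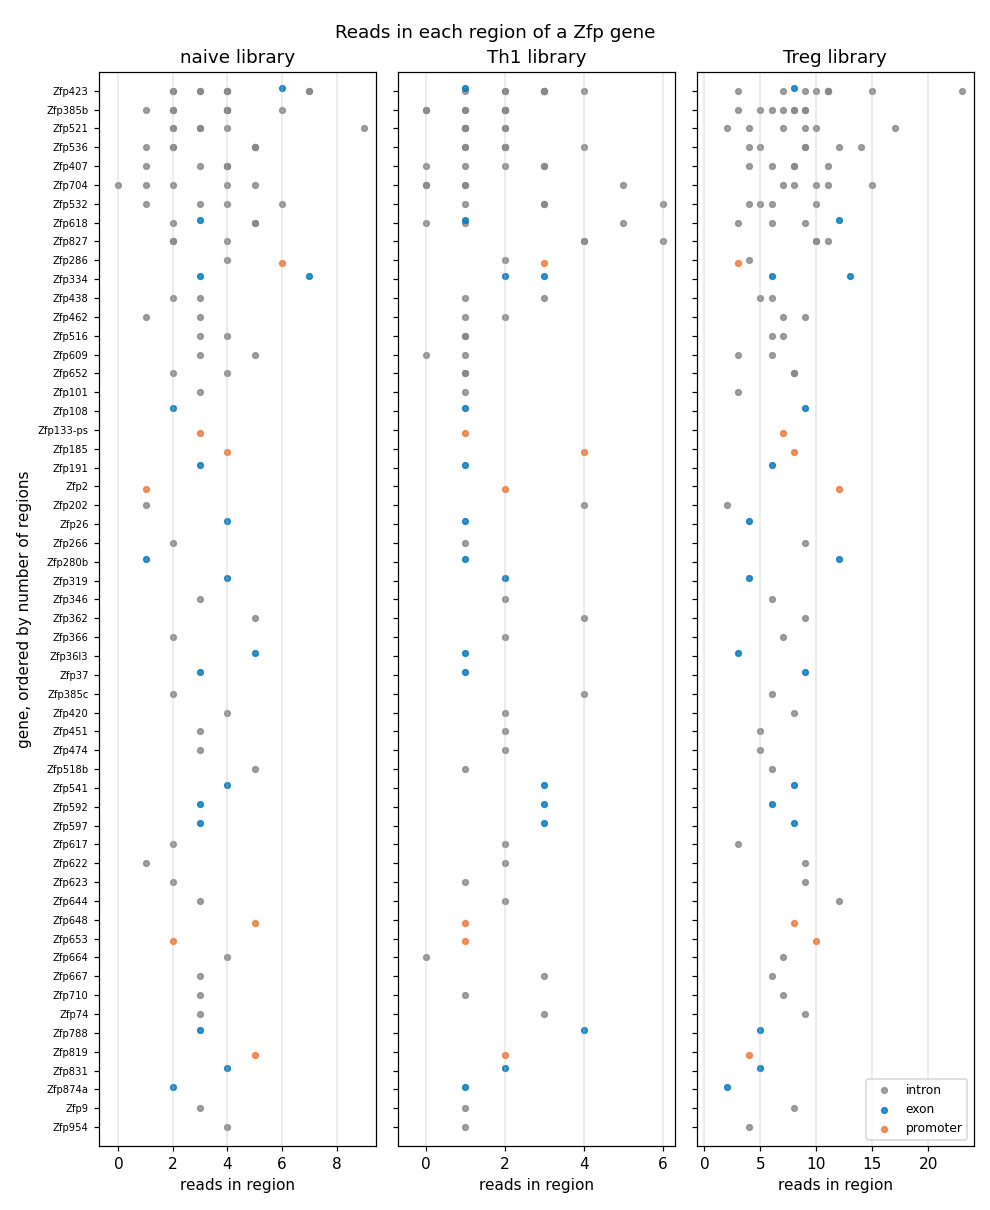
Reads in each of the 105 Zfp regions (horizontal axes) in the naive, Th1 and Treg libraries, 1 row per gene ordered by number of regions; points are regions and colour marks promoter, exon or intron. Reads reach 9 in naive (Zfp521), 6 in Th1 (Zfp532 and Zfp827) and 23 in Treg (Zfp423), and points at 0 mark the 9 unread regions.

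Over all 105 regions, the mean value was 3.31 units in naive (interval 2.97 to 3.68), 3.25 in Th1 (2.82 to 3.73) and 2.69 in Treg (2.50 to 2.88). The means of the whole table, 3.41, 3.29 and 2.63, lie within these intervals. The Treg to naive ratio of summed values was 0.811 (0.714 to 0.922) in Zfp regions and 0.770 in the table, and the Th1 to naive ratio 0.982 (0.821 to 1.17) and 0.962. Of the 105 regions, 96 were read in all 3 libraries (91.4%, table: 85.9%), 9 in 2 of them and 0 in 1. No Th1 read was found in 8 (7.62%, table: 12.3%), no naive read in 1, and 0 lacked a Treg read. By the limit of 3 counts, 0 of 105 allows up to 2.86%, and the exact interval reaches 3.45%. All 9 regions unread in a library were intronic, in Zfp704, Zfp385b, Zfp618, Zfp407, Zfp664 and Zfp609. Over the table, 992 of the 1229 regions without a Th1 read and 121 of the 161 without a naive read were intronic. Intronic regions made up 77.1% of all Zfp regions.

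A region was counted as higher or lower in a library when its values, each raised by 0.5, differed by 1 or more on the log2 scale. By that rule the Th17 value was the lower one against each other library in 96 Zfp regions (91.4%) and in 85.2% of the table, which follows from the Th17 zeros. For Th1 against naive, 17 Zfp regions were higher (16.2%, table: 19.4%) and 27 lower (25.7%, table: 29%). For Treg against naive, 11 were higher (10.5%, table: 8.33%) and 21 lower (table: 22.2%). For Treg against Th1, 11 were higher (10.5%, table: 17%) and 22 lower (21.0%, table: 21%). All 6 table shares lie within the intervals of the Zfp shares, as the plot of counted regions shows. When each library was scaled to the same total over the table, Treg was higher than naive in 20 Zfp regions and lower in 9, and higher than Th1 in 23 and lower in 12. Over the whole table the same scaling gave 15.2% higher and 12.3% lower than naive, and 22.6% higher and 15.2% lower than Th1. The prevailing direction of both Treg comparisons therefore turned with the scaling, in Zfp regions and in the table. The pairs share libraries.

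**Figure D5:**
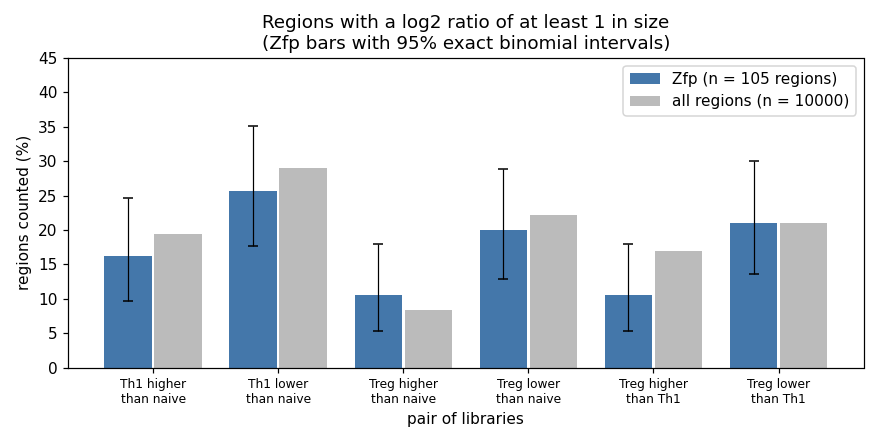
Share of regions counted as higher or lower (vertical axis, percent) in each pair of libraries for the 105 Zfp regions and all 10000 regions; whiskers are 95% exact binomial intervals for Zfp. The Zfp shares run from 10.5% to 25.7%, and each interval holds the table's share.

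Ranked by size among the counted regions, Th1 stood highest over naive in introns of Zfp704 (0 naive and 5 Th1 reads), Zfp532 (1 and 6), Zfp536 and Zfp202 (1 and 4 each) and Zfp407 (1 and 3; 84543624 to 84543946). Th1 stood lowest against naive in introns of Zfp618 (5 naive and 0 Th1 reads), Zfp704, Zfp664 and both unread Zfp385b introns (4 and 0 each), with a Zfp407 intron tied at the same reads. For Treg over naive the leaders were 2 intronic regions of Zfp704 and the regions of Zfp536, Zfp2 and Zfp280b. The last 3 had 1 naive and 12 Treg reads each and a ratio of 4.25 (interval 0.628 to 182). For Treg under naive they were Zfp521, the Zfp286 promoter (ratio 0.177, interval 0.0286 to 0.828), the Zfp609 intron and the Zfp36l3 exon with 5 naive and 3 Treg reads (0.212, 0.0330 to 1.09), and Zfp532. Treg over Th1 was led by regions with no Th1 read, in Zfp704, Zfp385b, Zfp664 and Zfp618, the last tied with a Zfp609 intron and another Zfp385b intron at 0 Th1 and 6 Treg reads. Treg under Th1 was led by Zfp202, Zfp618, the Zfp286 promoter, the Zfp423 intron at 90236248 and the Zfp788 exon. Most of these intervals hold 1, so the ranking is of libraries at this depth and has no replicate check.

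Reads were also compared by a 2-sided exact binomial test in each of the 10000 regions, with Benjamini-Hochberg adjustment; this compares libraries and not cell types. It called 0 Zfp regions in any of the 3 pairs, and in the whole set 1 region, lower in Treg than in naive (0.01%), and 0 elsewhere. At an unadjusted p under 0.05, Th1 was higher than naive in 2 Zfp regions, of Zfp532 and Zfp704 (table: 1.37%), and lower in 0 (0.16%). Treg was lower than naive in 5, of Zfp521, Zfp286, Zfp36l3, Zfp532 and Zfp609 (table: 8.08%), and higher in 0 (0.32%). Treg was lower than Th1 in 3, of Zfp532, Zfp202 and Zfp618 (5.01%), and higher in 0. The null of this test was equal deposited values. Over the table, however, the Treg to naive ratio was 0.770 and the Treg to Th1 ratio 0.800. The lower side of both Treg comparisons was thus favoured in Zfp regions and in the table alike. The prevailing direction of the counts by size given above turned with the scaling. The smallest p among Zfp regions was that of the Zfp521 intron with 9 naive and 2 Treg reads, an exact binomial p of 0.000183 and an adjusted p of 0.223.

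By background knowledge, 16 of the 56 genes encode a KRAB domain, and they held 18 regions: Zfp26, Zfp37, Zfp74, Zfp101, Zfp108, Zfp202, Zfp266, Zfp286, Zfp334, Zfp420, Zfp617, Zfp667, Zfp788, Zfp819, Zfp874a and Zfp954. Their regions were intronic in 9 of 18 cases (interval 26.0% to 74.0%) and 38.9% exonic (17.3 to 64.3). The 87 regions of the other 40 genes were 82.8% intronic (73.2 to 90.0) and 11.5% exonic (5.65 to 20.1). Of their 72 intronic regions, 49 came from the 9 genes with 3 or more regions, and these intervals treat regions of a gene as independent. By genes the classes lay closer: 56.25% of the 16 had an intronic region and 37.5% an exonic one, beside 67.5% and 25% of the other 40. The other 40 were not checked for the domain, so some of them may encode it, and no difference between the classes was tested. Only 2 of the 16, Zfp286 and Zfp334, had more than 1 region.

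Treg reads per region had a median of 4.5 in KRAB genes (2 to 13) and 8 in the others (2 to 23), so the ranges overlap. The mean Treg value was 2.02 units in KRAB genes (interval 1.65 to 2.45) and 2.82 in the others (2.62 to 3.04). These intervals cover counting error only and do not overlap. The table's mean was 2.63, and the difference between the classes was not tested. Naive means were 3.38 (2.58 to 4.34) and 3.30 (2.93 to 3.70), and Th1 means 3.46 (2.43 to 4.76) and 3.21 (2.74 to 3.73). The Treg to naive ratio was 0.597 (0.431 to 0.834) in KRAB genes and 0.856 (0.745 to 0.986) in the others, intervals that overlap. Among intronic regions alone the mean Treg value was 1.88 (1.39 to 2.49) for 9 KRAB regions and 2.84 (2.61 to 3.08) for 72 others. Among exonic ones it was 2.42 (1.78 to 3.20) and 2.54 (1.99 to 3.20), with intervals that overlap, while those of the intronic regions do not. These intervals pool regions of a gene as independent. Of the 72 others, 49 lay in genes with 3 or more regions, none of them listed as KRAB. Median Treg reads were 9 in genes with 3 or more regions, 6 in genes with 2 and 7 in genes with 1. KRAB class and number of regions are thus mixed here, and their parts were not tested. Regions of the KRAB genes had a median length of 240 bp and those of the others 247 bp. KRAB genes lie in clusters of similar genes, and the part that reads with several matches play in these values was not tested.

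Of 26 genes of the machinery that KRAB proteins recruit, from Trim28 and Setdb1 to DNA methyltransferases, 6 had 7 regions. Over all 21896 protein-coding genes 22.1% had a region, a share near that of these 26. Dnmt3a, a de novo DNA methyltransferase, had an intron with 1 naive, 1 Th1 and 6 Treg reads and exon 19 with 4, 2 and 13. Dnmt1, the maintenance enzyme, held 2, 3 and 12. Uhrf1, its cofactor at replicated DNA, held 2, 3 and 10 in exon 4, and Uhrf2 held 4, 3 and 8. Atrx, a chromatin remodeller, held 1, 2 and 7 in exon 2, and Atf7ip, which stabilises Setdb1, held 3, 1 and 5. Trim28 and Setdb1 themselves had no region in the table. Other zinc finger families (Zbtb, Zscan, Zfhx, Zfpm and Klf) had 35 regions under 15 labels, led by Zbtb20 with 7 and Klf12 with 5. They were 88.6% intronic (73.3 to 96.8), and their means were 3.27 units in naive, 3.46 in Th1 and 2.56 in Treg, each within the Zfp interval.

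Zfp regions lay on 17 chromosomes, and chromosome 18 held 21 of them (interval 12.8% to 28.9%) from 7 genes, where 3.08% of all regions lay. These genes were Zfp521 (6 regions), Zfp407 (5), Zfp532 (4), Zfp438 (2), Zfp516 (2), Zfp474 (1) and Zfp191 (1), and 20 of the 21 regions were intronic. Zfp regions made up 6.82% of the 308 regions of that chromosome. Chromosome 7 held 16 regions from 11 genes (15.2%, interval 8.97 to 23.6; table: 6.09%), the most genes of any chromosome. Chromosome 8 held 15 regions (14.3%, table: 5.57%) from 4 genes, of which Zfp423 alone gave 10. Regions of a gene always share its chromosome, and the intervals given here, which treat regions as independent, do not allow for that. Chromosomes 12, 14 and 19 held 0 Zfp regions among 374, 406 and 284. Members of different genes lay within 100 kb of each other in 2 places: Zfp420 and Zfp74 on chromosome 7, 45.4 kb apart, and Zfp26 and Zfp266 on chromosome 9, 55.5 kb apart, all 4 of them KRAB genes.

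RefSeq names (GRCm38.p6) gave 397 protein-coding genes called Zfp with a digit, of which 55 (13.9%) had a region in the table. Over all 21896 protein-coding genes 4840 (22.1%) did. These shares were not counted alike. The 55 came only from labels of the form Zfp with a digit, while the 4840 came from any label matched by symbol or synonym. A Zfp gene listed under another kind of name is therefore missed in the 13.9% only. All 56 members matched a RefSeq gene, 55 by symbol and Zfp191 by its synonym, as Zfp24. The sources used here do not say how the table's regions were chosen, so a Zfp gene that is missing from it is not shown to be alike in the 4 populations.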

How the data were processed

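Methylated DNA was captured (MethylCap kit, 250 ng of precipitated DNA per library, fragments of 250 to 350 bp, per the labels' protocols) from 4 populations with 1 library each. FastQC, Bowtie 0.12.7 and mm9 are listed in the submitters' processing notes; the sources used here do not say how regions were called, chosen and scaled. As deposited, each value is a signal per region and library, equal to a read count times 1 constant. Dividing by that constant gave whole reads for 100% of the naive, Th1 and Treg values within a relative tolerance of 1e-06. Th17 is 0 throughout. The signed base number of promoter regions is a deposited score of undefined origin.

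Means carry exact Poisson intervals, shares exact Clopper-Pearson intervals and ratios the exact interval of reads in 1 library given both, at 95% (Python 3.11.15, scipy 1.17.1). Regions were counted at a log2 ratio of 1 with a pseudocount of 0.5, and no test between populations was possible. Table-wide steps were tested on simulated data. The members and lists were chosen with earlier results of these data known. The naming rule takes every promoter and exonic region, genes with 3 or more regions, the 5 largest ratios per pair and direction, the 5 highest totals and any region unread in 2 libraries. KRAB membership and protein roles are background knowledge. The table of proteins planned for was not used here. Gene names and promoter sequences are RefSeq's (GRCm38.p6). No mm9 sequence was used.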

Additional observations from a re-analysis of the deposited data

How the results depend on the processing

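The results rest on few reads per region: a typical Zfp region has 3 naive, 2 Th1 and 8 Treg reads, and 1 library per population allows no check by replicates. No paired analysis was possible because each population has 1 library and the labels give no replicate numbers. Of 69 values recomputed under other settings, 28 stayed within 1.5 times the reported count or within its interval and 41 did not. The counts below are of Zfp regions in the order Th1 higher and lower than naive, Treg higher and lower than naive, and Treg higher and lower than Th1, reported as 17, 27, 11, 21, 11 and 22. Beside each set stand the shares over the whole table in the same order. A pseudocount of 5 gave 2, 1, 0, 1, 0 and 2 (1.91%, 2.21%, 0.06%, 0.73%, 0.18% and 1.71%). A threshold of 1.5 on the log2 scale gave 10, 13, 5, 9, 8 and 5 (9.65%, 15.3%, 4.05%, 12.1%, 11.7% and 9.26%), and 1.5-fold gave 32, 37, 20, 39, 30 and 36 (31.6%, 37.3%, 16.1%, 39.2%, 26.3% and 35.2%). Equal table totals gave 17, 21, 20, 9, 23 and 12 (19.6%, 21.3%, 15.2%, 12.3%, 22.6% and 15.2%), with the Treg mean at 3.18 units in place of 2.69. Requiring a highest value of at least 5 left 37 Zfp regions and gave 13, 5, 5, 6, 1 and 16 (41.9%, 14.2%, 11.3%, 25.6%, 7.29% and 42.6% of the regions that passed in the table). Counting genes by their summed values gave 6, 7, 3, 10, 2 and 12 of 56 (15.6%, 23.0%, 6.38%, 18.3%, 13.3% and 18.2%). The exact binomial test of reads, added after the data were examined, gave 0 in each of the 6. By genes in place of regions, 28.6% had an exonic region (table labels 28.4%) and 64.3% an intronic one (75.0%), shares that can overlap. With 1 region per gene, the one with the most reads, 0 regions lacked a naive read and 2 a Th1 read, in place of 1 and 8. Choosing by reads drops sparse regions by construction, so this fall cannot show whether the unread regions depend on counting by genes. Leaving out Zfp423 moved no mean per library beyond its interval, and adding the other labels that start with Zfp (110 regions) moved no mean and no location share beyond its own.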
